A study of Mus musculus with 12 samples.

Results

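The genes described here are 44 mouse genes of DNA repair that are best known from body cells, and their RNA was measured in the aging testis. Members were chosen by name: a row of the deposited transcript table belonged to a gene when it carried the gene's symbol and matched, lay within, shared a splice site with or overlapped a reference transcript of that gene, and the read counts of these rows were summed per gene. All 44 names were found, with 146 transcripts (71 that match a reference transcript and 75 that share a splice junction with one), among 31541 genes and loci in the table. The samples were whole testes of wild-type C57BL/6 mice, an inbred laboratory strain, without any treatment or added allele, taken at 3, 6, 12 and 18 months (3M, 6M, 12M and 18M), with 3 mice at each age and 1 library of ribosome-depleted total RNA per mouse. The question is whether RNA of the repair machinery rises or falls as the testis ages. The name "somatic" describes where these genes are best known, not where this RNA came from, since a whole testis holds germ cells and body cells together. In such bulk samples, fewer cells of a type and less RNA per cell cannot be told apart.

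Cells repair DNA along several routes. In base excision repair a glycosylase removes a damaged base, an endonuclease opens the strand, a polymerase fills the gap and a ligase seals it, and nucleotide excision repair cuts out a longer stretch around bulky lesions such as those made by ultraviolet light. Breaks through both strands are rejoined directly by end joining or copied from a sister molecule by homologous recombination, crosslinks are opened by the Fanconi anemia proteins, mismatch repair corrects copying errors, and translesion polymerases copy across lesions that remain. In the testis the same proteins serve dividing spermatogonia, meiotic spermatocytes, which cut their own DNA on purpose, and spermatids, which lose much of their repair as their chromatin is packed.

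The 12 libraries held 50924104 to 71803379 estimated reads, and 0.162% to 0.176% of them fell on the 44 genes, with at least 4 reads for every gene in every library. Between libraries of the same age the Pearson correlation of log2(CPM + 1) across genes was 0.989 to 0.991, where CPM is the reads of a gene scaled to a common library size, and no 2 libraries held the same values. Markers of spermatids summed to 16207 to 23089 CPM, those of spermatocytes to 770 to 848 and those of Sertoli cells to 291 to 377, while those of the epididymis stayed under 1 CPM, so the libraries carry the label of testis. The third 12M mouse had the highest spermatid sum, and 9 of the 44 genes had their lowest value in that library. The Leydig markers summed to 558 to 770 CPM at 18M against 884 to 1059 at 3M, and the part of such shifts in the values below was not tested.

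Levels were compared between genes as FPKM, fragments per kilobase of transcript scaled to a common library size, summed over a gene's transcripts and averaged over the 12 libraries. The levels spanned from 107 FPKM for Polb to 0.188 for Neil1, with a median of 7.32 against 2.68 over the 25214 genes and loci that were tested. Of the 44 genes, 4 lay above 20 FPKM, 13 between 10 and 20, 23 between 2 and 10 and 4 below 2. Polb, Lig3 and Xrcc1 together made 37.8% of the summed level of all 44. These 3 act at the end of base excision and single-strand break repair, as a gap-filling polymerase, a ligase and a scaffold.

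**Figure D1:**
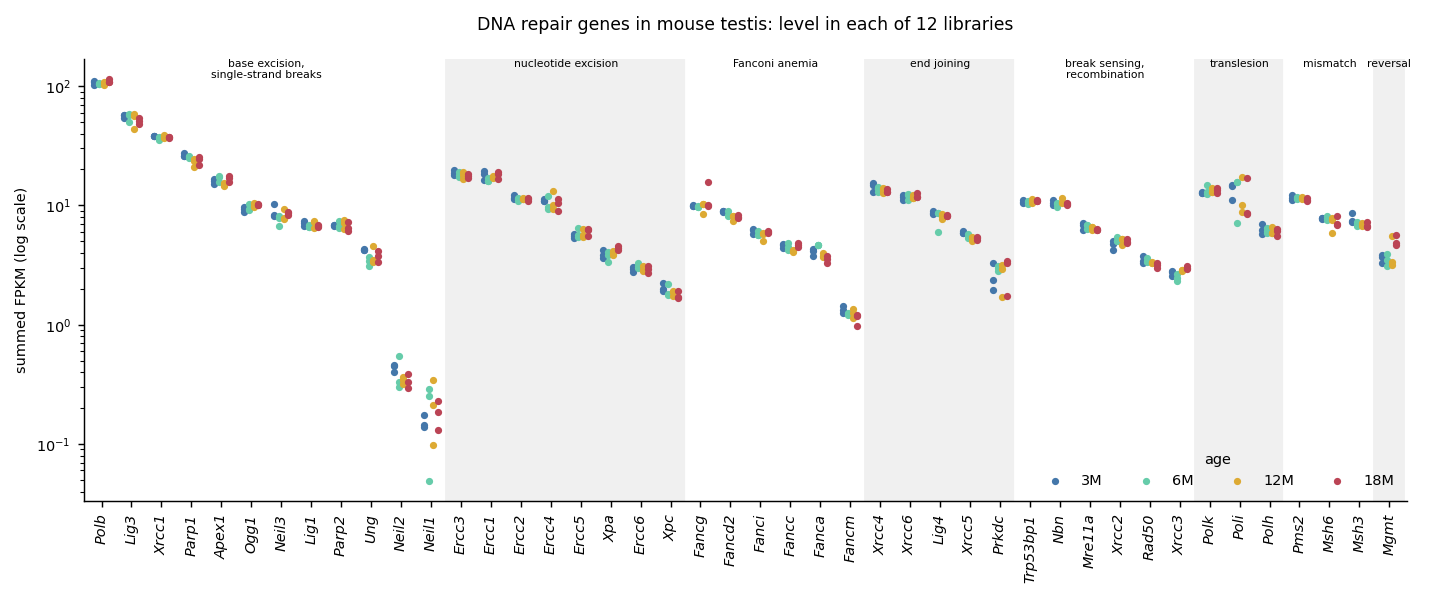
Summed FPKM (log scale) of the 44 DNA repair genes in each of the 12 libraries, grouped by repair route and ordered by mean level within a route, with 1 point per mouse coloured by age. Polb, Lig3 and Xrcc1 stand highest and Neil2 and Neil1 lowest, while Neil1, Poli and Prkdc spread widely between mice. For Prkdc this holds in FPKM only, with a coefficient of variation of 0.230 against 0.0489 in CPM.

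Polb, DNA polymerase beta, which fills the gap left by a removed base, had 107 ± 3.45 FPKM (SD over the 12 libraries). In CPM, after TMM scaling between libraries, its values were 144, 134 and 143 at 3M, 137, 140 and 135 at 6M, 140, 137 and 140 at 12M, and 142, 142 and 151 at 18M. The 18M values overlapped those of 3M and lay above those of 6M and 12M, with the highest in the third 18M mouse. Between 18M and 3M the log2 fold change was 0.05 with a standard error of 0.05 (95% interval -0.07 to 0.16).

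Xrcc1, the scaffold of single-strand break repair, had 37.3 ± 0.902 FPKM. Its CPM values were 85.6, 86.8 and 88.3 at 3M, 86.1, 82.8 and 80.1 at 6M, 86.0, 87.4 and 83.3 at 12M, and 83.2, 85.7 and 85.9 at 18M. They stayed within 80.1 to 88.3, the smallest spread of the 44 relative to the mean. Its log2 fold change between 18M and 3M was -0.03 ± 0.04 (SE), with a 95% interval from -0.13 to 0.06.

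Lig3, DNA ligase III, the partner of Xrcc1, had 53.9 ± 4.596 FPKM, 7.82 ± 0.515 times the level of the replicative ligase Lig1 and 6.61 ± 0.691 times that of the end-joining ligase Lig4 in the same libraries. Its CPM values were 264, 275 and 277 at 3M, 277, 281 and 254 at 6M, 287, 285 and 227 at 12M, and 269, 245 and 244 at 18M. The third 12M mouse was the lowest, and the ages overlapped. The log2 fold change between 18M and 3M was -0.11 ± 0.05 (SE), with a 95% interval from -0.23 to 0.01.

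Lig3 RNA ended in 2 ways, which is shown here as sequence because the last coding exon decides the end of the protein. The gene is known for a body-cell form whose end holds a BRCT domain, the part that binds Xrcc1, and for a germ-cell form that lacks it. Both forms share the exon that ends at position 82800297 of chromosome 11 (mm10, plus strand), and then run either into a near exon whose coding part with its stop codon is chr11:82800499-82800555 or into a far exon with chr11:82801281-82801514. The sequences are from the GENCODE vM21 transcripts of the same build, 5′ to 3′, with the last 30 bases of the shared exon in lower case and the alternative coding end, stop codon included, in capitals.
Lig3 near exon: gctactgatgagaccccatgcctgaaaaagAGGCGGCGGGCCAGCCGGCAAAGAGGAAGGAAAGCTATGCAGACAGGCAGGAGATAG
Lig3 far exon: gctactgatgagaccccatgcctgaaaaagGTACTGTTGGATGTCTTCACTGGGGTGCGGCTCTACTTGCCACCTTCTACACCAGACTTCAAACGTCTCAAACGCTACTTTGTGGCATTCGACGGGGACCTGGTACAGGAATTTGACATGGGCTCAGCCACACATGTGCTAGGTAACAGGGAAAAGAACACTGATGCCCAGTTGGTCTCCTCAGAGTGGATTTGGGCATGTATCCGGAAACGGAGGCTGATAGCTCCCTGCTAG

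The near end holds 54 coding bases before its stop and the far end 231, so that the annotated coding sequences are 2859 and 3048 bases long. Of the 15 Lig3 transcripts, 6 ended in the near exon and 9 in the far one. Transcripts with the near end had 36.8 ± 4.65 FPKM (SD over the 12 libraries) and those with the far end 17.1 ± 1.84, so that the near end took 68.2% ± 3.96 of the Lig3 level. Its share was 69.9%, 71.2% and 71.8% in the 3M mice, 69.8%, 72.9% and 62.1% at 6M, 60.8%, 71.2% and 64.3% at 12M, and 68.6%, 66.2% and 69.3% at 18M. The 3 lowest shares belonged to mouse 3 of 6M and mice 1 and 3 of 12M. All 3 shares of 18M lay below those of 3M, while the ranges of 6M and 12M overlapped both, and the shares were not tested. In reads, which count a long transcript more, the near end held 45.7% ± 3.84, and 2 of the far transcripts, MSTRG.3302.12 and MSTRG.3302.14, run on to position 82807430 and lie over 1924 exonic bases of Rffl on the opposite strand, as the smaller MSTRG.3302.9 does over 1986. The kit kept no strand, so reads of Rffl and of these ends cannot be told apart, which leaves the far share the less certain. Another far transcript, MSTRG.3302.3, has 32.6% of its bases on exons of Zfp830 on the same strand. It held 0.0496% to 14.7% of the Lig3 reads by library, so it also adds to the uncertainty of the shares. The leading transcript, MSTRG.3302.13 with the near end, held 43.1% of all Lig3 reads. In the edgeR test of a slope on age its log2 change over 15 months was -0.21 with an adjusted p of 0.854.

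**Figure D2:**
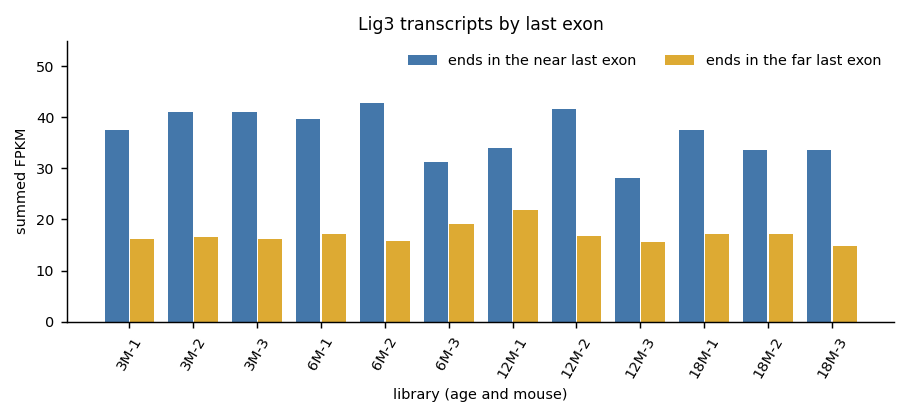
Summed FPKM of Lig3 transcripts that end in the near last exon (blue) and in the far last exon (yellow), a pair of bars per library. The near end is the higher in all 12 libraries, from 28.2 to 42.7 FPKM against 14.9 to 21.9.

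With age, none of the 44 genes was called. In the test of a straight slope on age in months over all 12 libraries (edgeR quasi-likelihood test with Benjamini-Hochberg adjustment over all genes, called at an adjusted p of 0.05 or less), 0 of 44 passed, where 41 of 25214 genes and loci (0.163%) did. Between 3M and 18M 0 of 44 passed, where 16 of 24614 (0.0650%) did. For any difference among the 4 ages it was 0 of 44, where 20 of 25214 (0.0793%) passed. Among the members' transcripts 0 of the 141 tested had a slope that passed, where 6 of 58289 (0.0103%) did. DESeq2 also called 0 of the members in all 4 tests, while it called 562 genes for the slope. At an unadjusted p of 0.05 or less the slope marked 9 of the 44 (20.5%), 4 with a positive and 5 with a negative sign, where it marked 15.4% of all genes tested, 7.42% positive and 8.02% negative. The comparison of 18M with 3M marked 3 of 44, 1 positive and 2 negative, against 12.0%, 5.68% positive and 6.33% negative, any difference among the ages 2 of 44 against 9.03%, and the slope of transcripts 4 of 141 against 7.15%. These shares lie near the background or below it. Step by step, in 1 fit of all 12 libraries, edgeR called 0 of the 44 between 6M and 3M (0.0238% of all genes), 12M and 3M (0.0397%), 18M and 3M (0.0952%), 12M and 6M (0.0317%), and 18M and 12M (0.00397%). The smallest adjusted p of a gene in the 3 tests of gene sums was 0.209 for the slope, 0.354 between 3M and 18M and 0.491 for any difference.

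The intervals limit how large a change could have been. The 95% interval of the log2 fold change between 18M and 3M lay within -1 and 1, that is within a 2-fold change, for 43 of the 44 genes, the exception being Neil1 with an interval from -0.62 to 1.08. It lay within a 1.5-fold change for 39 genes. The median standard error was 0.07. Estimates were negative for 30 genes and positive for 14, with a median log2 fold change of -0.05 against 0.01 over all 24614 genes tested, of which 11958 were negative. Sizes of 0.25 or more were seen in 3 genes, Mgmt at 0.51, Neil2 at -0.36 and Fancm at -0.25. At a mean of 1 CPM or more, 37 of 42 genes had a coefficient of variation over the 12 mice below 10%. Their median was 0.0598, against 0.107 over all 20250 genes and loci at 1 CPM or more. Those were not matched to the members by level.

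**Figure D3:**
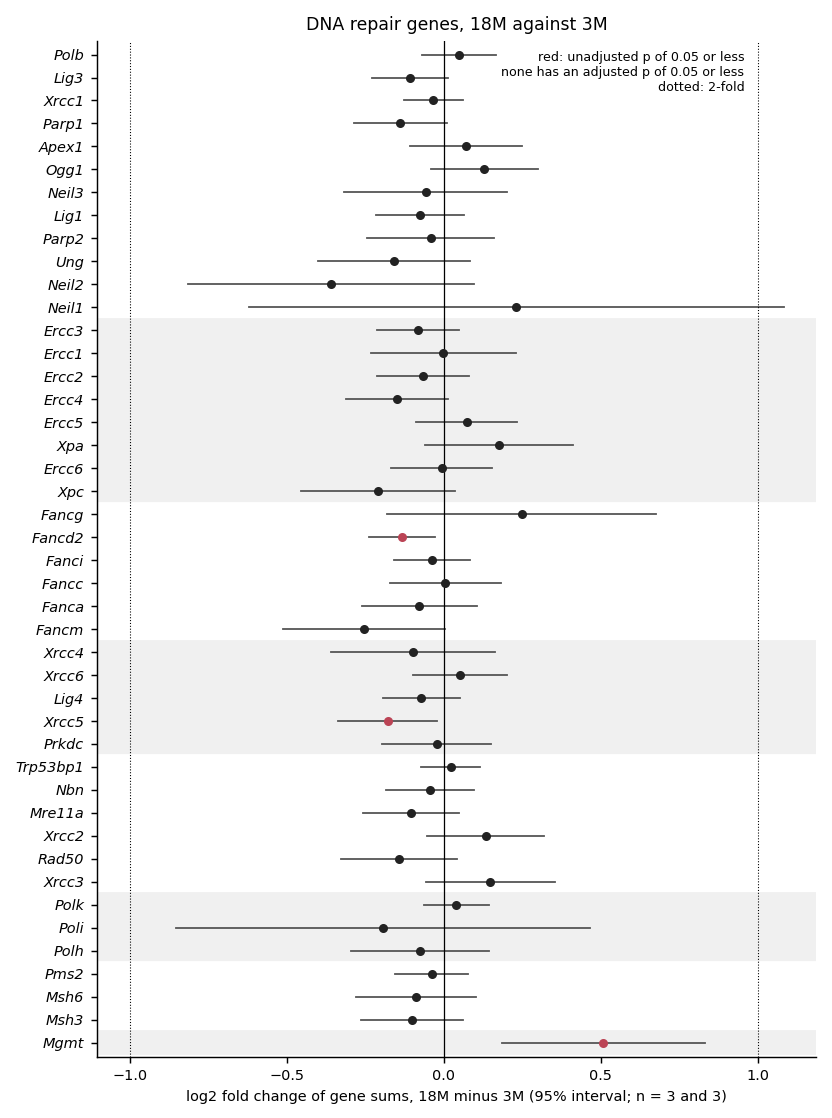
Log2 fold change of the gene sums between 18M and 3M for the 44 genes (points) with 95% intervals (lines), ordered as in the plot of levels, for 3 mice against 3; dotted lines mark a 2-fold change. Mgmt at 0.51, Fancd2 at -0.13 and Xrcc5 at -0.18 (red) had an unadjusted p of 0.05 or less, and no gene passed the adjusted threshold.

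Among the 12 genes of base excision and single-strand break repair, Ogg1 and Parp1 had an unadjusted p of 0.05 or less for the slope. Over all genes tested the share at this limit was 15.4%. Ogg1, the glycosylase that removes oxidized guanine, had 9.31 ± 0.475 FPKM (SD, n = 3) at 3M, then 9.64 ± 0.587 at 6M, then 10.1 ± 0.445 at 12M and finally 10.2 ± 0.164 at 18M, a mean that was higher at each age. Its slope came to a log2 change of 0.13 over the 15 months (edgeR adjusted p = 0.309). Parp1, which senses strand breaks and marks them with poly(ADP-ribose), had CPM values of 106, 111 and 106 at 3M, 106, 102 and 102 at 6M, 99.8, 98.4 and 85.5 at 12M, and 103, 100.6 and 89.8 at 18M. All 3 of the 18M mice lay below the 3M mice, and the lowest value was again in the third 12M mouse. The log2 fold change between 18M and 3M was -0.14 ± 0.06 (SE) with an edgeR adjusted p of 0.435. The level of Parp1 was 3.64 ± 0.349 times that of its relative Parp2 in FPKM, and the ratio lay between 3.04 and 4.15 over the libraries.

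Neil1, Neil2 and Neil3 encode glycosylases that remove oxidized pyrimidines. Neil1 had only 4 to 26 reads per library, with CPM values of 0.190, 0.228 and 0.191 at 3M, 0.374, 0.337 and 0.0703 at 6M, 0.439, 0.280 and 0.127 at 12M, and 0.247, 0.171 and 0.293 at 18M. The highest of these was at 12M and the lowest at 6M, and at this depth no difference was detectable. Neil2 had 31 to 63 reads per library, with 0.819, 0.947 and 0.921 CPM at 3M, 0.688, 0.614 and 1.11 at 6M, 0.710, 0.671 and 0.748 at 12M, and 0.688, 0.797 and 0.614 at 18M. The 18M mice lay below the 3M mice, but the highest value was in the third 6M mouse, and the log2 fold change of -0.36 ± 0.19 (SE) had an edgeR adjusted p of 0.485. Neil3 stood at 8.35 ± 0.883 FPKM, 22.9 ± 4.40 times Neil2, but nearly all of that came from the end of the gene, as described with the transcripts below. Apex1, the endonuclease that opens the strand after the base is gone, had 16.1 ± 1.02 FPKM, and the uracil glycosylase Ung 3.82 ± 0.474.

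Of the 8 genes of nucleotide excision repair, 1 had an unadjusted p of 0.05 or less for the slope, where 15.4% of all genes tested did. It was Xpa, which checks the damage before the cut, with a log2 change of 0.19 over 15 months (edgeR adjusted p = 0.323). Xpa had 3.91 ± 0.296 FPKM (SD, n = 3) at 3M and 4.41 ± 0.151 at 18M. Xpc, which finds the distorted helix first, was the lowest of the group, with 2.05 ± 0.177 FPKM at 3M, then 1.92 ± 0.237 at 6M, then 1.84 ± 0.0950 at 12M and finally 1.76 ± 0.125 at 18M. Its mean was lower at each age, but its slope had an edgeR adjusted p of 0.354. The ratio of Xpc to Xpa was 0.525 ± 0.0544 at 3M and 0.400 ± 0.0297 at 18M, a description without a test. The helicase subunits Ercc3 and Ercc2 of the factor TFIIH had 18.1 ± 0.868 and 11.4 ± 0.346 FPKM, and their ratio, Ercc2 to Ercc3, stayed within 0.575 to 0.682 in all libraries. The nuclease partners Ercc1 and Ercc4 had 17.4 ± 1.15 and 10.6 ± 1.24 FPKM, the nuclease Ercc5 5.82 ± 0.410, and Ercc6, which serves stalled transcription, 2.97 ± 0.166.

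Of the 6 Fanconi anemia genes, Fancd2 and Fancm had an unadjusted p of 0.05 or less for the slope, both with a negative sign. Over all genes tested 15.4% had such a p, and 8.02% had it with a negative sign. Fancd2, which is marked with ubiquitin together with Fanci at a crosslink, had 49.96, 51.4 and 51.8 CPM at 3M, 51.1, 47.4 and 46.3 at 6M, 46.8, 47.3 and 42.1 at 12M, and 47.5, 46.3 and 45.9 at 18M. The 3 mice of 18M lay below the 3M mice, while the first 6M mouse lay among the 3M values. The log2 fold change was -0.13 ± 0.04 (SE), and its edgeR adjusted p of 0.364 did not pass. The ratio of Fancd2 to Fanci was 1.45 ± 0.0794 at 3M and 1.34 ± 0.0570 at 18M in FPKM. Fancm, the helicase that recognizes the stalled fork, was the third lowest gene of all, with 10.99, 11.8 and 10.48 CPM at 3M, 10.54, 10.2 and 9.91 at 6M, 10.51, 11.4 and 9.30 at 12M, and 9.75, 10 and 8.14 at 18M. The 18M values lay below those of 3M, and the log2 fold change of -0.25 ± 0.11 (SE) had an edgeR adjusted p of 0.417.

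Fancg, a core subunit of the complex that marks Fancd2, varied through 1 mouse. It had 33.1, 33.1 and 32.5 CPM at 3M, 32.1, 32.4 and 32.4 at 6M, 34.5, 28.8 and 33.7 at 12M, and 33.0, 32.5 and 51.7 at 18M. Only the third 18M mouse stood apart, and in that library the transcript MSTRG.13889.4 held 42.3% of the Fancg reads against 6.86% to 8.76% in the other 11. The log2 fold change between 18M and 3M was 0.25 with that library and -0.01 without it.

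Of the 5 genes of non-homologous end joining, Xrcc5 had an unadjusted p of 0.05 or less for the slope, where 15.4% of all genes tested did. Xrcc5 and Xrcc6 encode Ku80 and Ku70, which form the ring that caps a broken end. Xrcc5 had 16.1, 16.9 and 16.2 CPM at 3M, 14.5, 15.7 and 14.9 at 6M, 13.9, 15.04 and 14.3 at 12M, and 14.5, 14.04 and 14.9 at 18M. All 9 mice of the later ages lay below the 3 mice of 3M. The log2 fold change between 18M and 3M was -0.18 ± 0.07 (SE), with a 95% interval from -0.34 to -0.02 and an edgeR adjusted p of 0.383. Xrcc6 stood at 11.9 ± 0.501 FPKM against 5.51 ± 0.343 for Xrcc5, with a log2 fold change of 0.05 ± 0.06 (SE). The ratio of Xrcc5 to Xrcc6 was 0.513 ± 0.0375 at 3M, then 0.465 ± 0.0461 at 6M, then 0.445 ± 0.0167 at 12M and finally 0.440 ± 0.0218 at 18M, without a test. Xrcc4 and Lig4, which seal the end together, had 13.7 ± 0.828 and 8.20 ± 0.785 FPKM, and Prkdc, the kinase that Ku recruits, 2.74 ± 0.631. The gene sum of Prkdc in CPM varied less, by a coefficient of 0.0489.

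Of the 6 genes of break sensing and homologous recombination, Xrcc3 and Rad50 had an unadjusted p of 0.05 or less for the slope, in opposite directions. Such a p was found for 15.4% of all genes tested. Xrcc3, which acts in homologous recombination, had 6.72, 7.42 and 7.37 CPM at 3M, 6.13, 6.52 and 6.94 at 6M, 7.44, 7.70 and 7.46 at 12M, and 7.87, 7.74 and 8.24 at 18M. The lowest values were at 6M, and all 3 mice of 18M lay above those of every earlier age. The log2 change by the slope was 0.21 over 15 months (edgeR adjusted p = 0.252). Rad50, the long arm of the complex with Mre11a and Nbn that holds broken ends, had 18.1, 20.5 and 19.0 CPM at 3M, 18.4, 20.02 and 18.6 at 6M, 18.1, 18.6 and 17.9 at 12M, and 18.1, 16.4 and 17.6 at 18M. One 18M mouse was level with the lowest 3M mouse, and the slope came to -0.15 over 15 months (edgeR adjusted p = 0.253). The ratio of Rad50 to Nbn was 0.328 ± 0.00663 at 3M and 0.307 ± 0.0206 at 18M, and that of Mre11a to Rad50 1.93 ± 0.129 and 1.99 ± 0.1001. Trp53bp1, the chromatin reader that steers breaks toward end joining, was among the steadiest, at 10.8 ± 0.311 FPKM.

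None of the 3 translesion polymerases and none of the 3 mismatch repair genes had an unadjusted p of 0.05 or less in any test of gene sums. For the slope 15.4% of all genes tested had such a p. Polk and Polh had 13.2 ± 0.726 and 6.14 ± 0.424 FPKM, and Poli, DNA polymerase iota, 12.4 ± 3.74, the largest coefficient of variation, 0.290, among genes of 1 CPM or more. Poli had 40.0, 40.9 and 30.3 CPM at 3M, 21.7, 43.8 and 44.8 at 6M, 27.6, 46.6 and 23.7 at 12M, and 25.1, 47.7 and 24.5 at 18M. Mice on both sides were found at each age, 6 of them at 40.0 CPM or more and 6 at 30.3 or less, with none between. Within the deposited transcripts NM_011972 held 45% to 56.5% of the Poli reads in the first and second 3M mice, the second 6M, the second 12M and the second 18M mouse, and 21.996% to 28.9% in the other 7. The third 6M mouse had a high gene sum with a low share of that transcript. Msh6 and Msh3, which pair with the same partner to read mismatches and loops, stood at 7.49 ± 0.651 and 7.15 ± 0.532 FPKM.

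Isoforms of Polk moved even more while the gene did not. MSTRG.5616.13, which holds 90.6% of the coding sequence, took 61.7% to 75.6% of the Polk reads in 5 mice, mice 2 and 3 of 6M, mouse 2 of 12M and mice 1 and 3 of 18M, and 4.43% to 16.9% in the other 7. The sum over all 13 Polk transcripts varied by a coefficient of only 0.0449. The cause of these jumps was not tested, and gene sums were used for the tests on genes.

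The deposited transcripts also show which part of a gene the reads came from. Each of the 146 transcripts was laid over the longest coding sequence that GENCODE vM21 gives for its gene. In 31 genes 90% or more of the reads lay in transcripts that hold at least 90% of that sequence, and in 4 genes 25% or more lay in transcripts that hold less than 50% of it: Neil3, Mgmt, Prkdc and Trp53bp1. For 28 genes the transcript with the most reads was a reference transcript, and for 16 it was one put together by the assembler.

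For Neil3, 98.4% of the reads lay in such short transcripts, with 97.6% to 100% in every library. The leading one, MSTRG.19675.1, has 3 exons between 53586867 and 53591800 on the minus strand of chromosome 8 (mm10), holds 19.5% of the coding sequence and took 83.1% of the reads. The gene itself spans 52.2 kb, and its full transcript NM_146208 took 1.59% of the reads at 0.0583 ± 0.0250 FPKM. The value of 8.35 FPKM for Neil3 is therefore a value for its last exons, and the RNA that holds the whole coding sequence stood below Neil1 and Neil2.

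**Figure D4:**
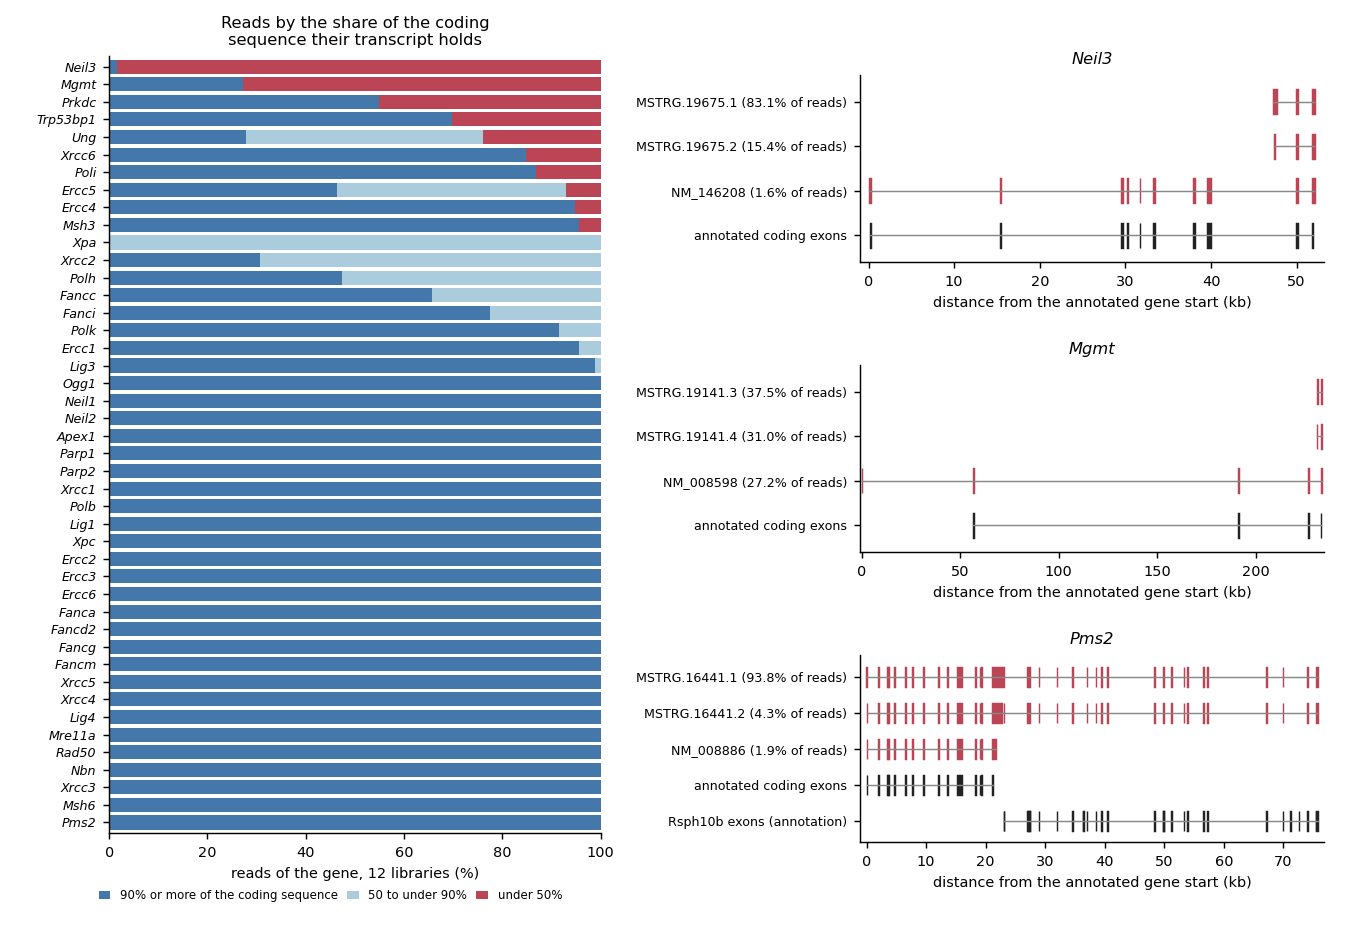
Left, share of each gene's reads (%, 12 libraries pooled) in transcripts that hold 90% or more, 50% to under 90%, or under 50% of the longest annotated coding sequence; right, exons (red boxes) of the 3 deposited transcripts with the most reads of Neil3, Mgmt and Pms2 above annotated exons (black), by distance in kb from the annotated gene start. Neil3 (98.4%) and Mgmt (72.8%) have most of their reads in short transcripts at the end of the gene, and the leading Pms2 transcript runs through the exons of Rsph10b.

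Mgmt, the enzyme that lifts methyl groups off guanine and is used up in doing so, had the largest estimate of all 44 genes and the smallest unadjusted p in both tests. Its CPM values were 2.49, 2.88 and 3.21 at 3M, 2.54, 3.13 and 2.62 at 6M, 2.65, 2.52 and 4.53 at 12M, and 4.34, 4.25 and 3.63 at 18M. The 3 mice of 18M and the third 12M mouse lay above the other 8. The log2 fold change between 18M and 3M was 0.51 ± 0.14 (SE), with a 95% interval from 0.18 to 0.83 and an edgeR adjusted p of 0.354, and the slope had an edgeR adjusted p of 0.209.

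Split by transcript, the higher values of Mgmt lay in its short forms. The full transcript NM_008598, 5 exons over 136894611 to 137128188 on the plus strand of chromosome 7, took 27.2% of the reads, and had 0.973 ± 0.0866 CPM (SD, n = 3) at 3M, then 0.877 ± 0.381 at 6M, then 0.836 ± 0.437 at 12M and finally 0.865 ± 0.108 at 18M. The other 3 transcripts hold 32.7% of the coding sequence, and together had 1.89 ± 0.277 CPM at 3M, then 1.88 ± 0.190 at 6M, then 2.40 ± 1.33 at 12M and finally 3.21 ± 0.287 at 18M. The short forms were at 2.87 CPM or more in the 18M mice and in the third 12M mouse, and at 2.17 or less in the other 8, while the full form did not differ in that way. This split rests on few estimated reads, 24 to 79 per library for the full form and 78 to 244 for the short forms. With Mgmt limited to transcripts that hold at least 50% of the coding sequence, an alternative chosen after the values were seen, the log2 fold change between 18M and 3M was -0.17 (edgeR adjusted p = 0.735). The third 12M mouse also had the highest sum of spermatid markers, and the part of the spermatid share in these values was not tested.

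**Figure D5:**
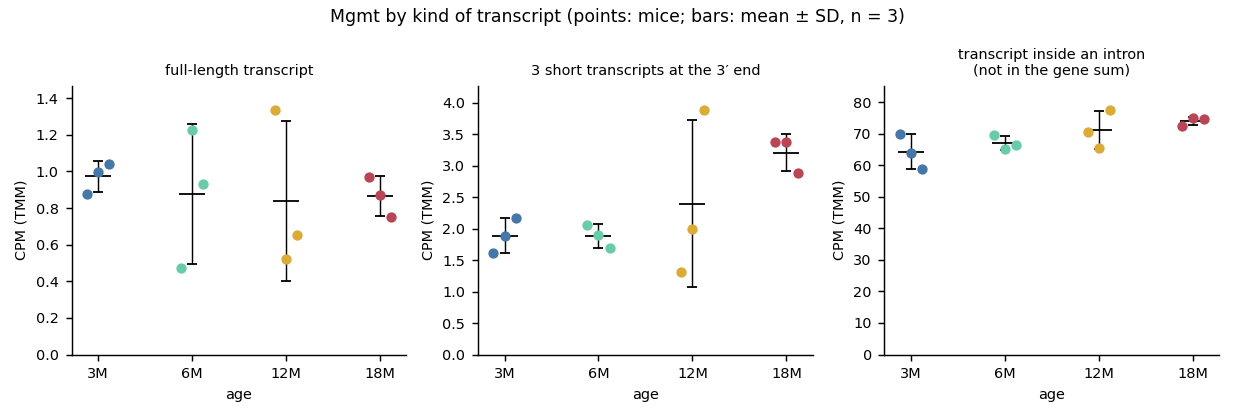
CPM of Mgmt in its full-length transcript, in its 3 short transcripts and in a separate transcript inside an intron that is not part of the gene sum, 1 point per mouse (left to right, mice 1 to 3) with the mean ± SD of 3 mice. The short transcripts are at 2.87 to 3.38 CPM at 18M against 1.62 to 2.17 at 3M, the full-length one at 0.754 to 0.970 against 0.876 to 1.04.

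In Prkdc 45.05% of the reads lay in MSTRG.7834.2, which holds 44.4% of the coding sequence, with 0% to 83.1% by library, while the gene sum varied by a coefficient of 0.0489. In Trp53bp1 30.3% lay in short transcripts that hold 38.2%. Ung has 2 annotated starts, known for a mitochondrial and a nuclear form, and the transcripts NM_011677 and NM_001040691 took 48.3% and 27.8% of its reads, with 23.9% in a short one that holds 15.03% of the coding sequence. In Xrcc2, which also acts in homologous recombination, a transcript of 2 exons that holds 85.5% of the coding sequence, MSTRG.15228.1, took 69.4% of the reads. Its slope came to a log2 change of 0.46 over 15 months at an edgeR adjusted p of 0.679.

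The value of Pms2, the endonuclease partner of mismatch repair, is uncertain for another reason. Of its reads 93.8% lay in MSTRG.16441.1, which starts at Pms2 on chromosome 5 (mm10, plus strand) at 143909848, ends at 143985804, and has 36.8% of its exonic bases on the neighboring gene Rsph10b at 143933035 to 143985719. The transcript of Pms2 alone, NM_008886, took 1.91% of the reads at 0.501 ± 0.357 FPKM. The 11.5 ± 0.332 FPKM of Pms2 thus includes RNA of both genes. In Xrcc4 the leading transcript, with 45.8% of the reads, has 18.4% of its bases on exons of Tmem167 on the other strand, and the kit cannot separate these reads.

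Without a test, the values behind the fits were also counted. In mean FPKM, 10 of the 42 genes with 1 FPKM or more in at least 1 age changed in the same direction at every step between ages, 1 upward and 9 downward, where 14.2% of all such genes did, 7.38% upward and 6.83% downward. The 1 was Ogg1 and the 9 were Lig3, Xpc, Ercc3, Xrcc4, Mre11a, Rad50, Polh, Poli and Msh3. The count rests on small steps, since it went down to 4 without the second 6M mouse, to 5 without the third 12M mouse and to 6 without the third 18M mouse. Over all such genes it was 2445 of 19799, 2449 of 19713 and 2626 of 19784 in turn, against 2804 of 19737. In CPM in place of FPKM 3 members changed upward and 7 downward, where 1492 and 1393 of 19737 genes did. The mice of 18M and 3M did not overlap in 13 of the 44 genes, 5 higher and 8 lower, where 19.3% of all genes did not, 9.51% higher and 9.82% lower. The 5 were Ogg1, Xpa, Xrcc2, Xrcc3 and Mgmt, and the 8 were Ung, Neil2, Parp1, Xpc, Ercc4, Fancd2, Fancm and Xrcc5. Leaving out a mouse can only keep or raise the count without overlap, so such counts do not test it. Without the first 3M mouse it was 26 of 44, where 8244 of 25214 genes and loci did not overlap. Without the first 18M mouse it was 20 of 44, where 8478 of 25214 did not, against 4876 with all mice.

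The promoters of 34 of the 44 genes were in a RefSeq table of sequences from 250 bases before to 50 bases after each start (GRCm38.p6), and they were searched on both strands for 8 short motifs. The core of the NRF1 site, GCATGCGC, was in 9 of the 34 (26.5%), against 3.05% of all 27025 symbols in the table and 4.91% of the 13980 that were also tested here. The GC box GGGCGG was in 26 (76.5%) against 58.3% of those tested, CCAAT in 16 (47.1%) against 42.0%, the ETS site CCGGAAGT in 3 (8.82%) against 6.99%, the E2F site TTTCGCGC in 2 (5.88%) against 0.572%, the YY1 site AAGATGGC in 2 (5.88%) against 4.23%, the cAMP site TGACGTCA in 0 against 3.09%, and the TATA box TATAAA in 1 (2.94%) against 10.3%. The TATAAA match was in Neil1, as the reverse complement, and began at -225 from the start. A match is a description of these letters and not a site in use. In Lig4, Ercc6 and Polh the NRF1 core overlaps its own reverse complement, and Polh holds it at more than 1 place, of which the first is shown. The windows of the 9 genes with the NRF1 core are shown on the strand of the gene, 5′ to 3′, with 15 bases on each side in lower case and the core in capitals, which stands as written in Lig1, Lig4, Fancm, Ercc6, Parp2 and Polh and as its reverse complement in Xrcc5, Xpa and Fanci.
Xrcc5: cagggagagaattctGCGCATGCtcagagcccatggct
Xpa: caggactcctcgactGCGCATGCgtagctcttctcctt
Lig1: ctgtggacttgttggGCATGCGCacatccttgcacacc
Fanci: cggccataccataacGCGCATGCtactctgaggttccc
Lig4: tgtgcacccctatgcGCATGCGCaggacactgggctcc
Fancm: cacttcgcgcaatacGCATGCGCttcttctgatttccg
Ercc6: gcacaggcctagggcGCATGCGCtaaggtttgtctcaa
Parp2: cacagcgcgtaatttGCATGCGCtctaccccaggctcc
Polh: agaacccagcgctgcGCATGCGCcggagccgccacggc

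In Xrcc5 the window is chr1:72307402-72307439 and its core begins at -4 from the start, in Lig1 (chr7:13277150-13277187) at -10 and in Xpa (chr4:46196305-46196342, minus strand) at -16. In Fancm (chr12:65075493-65075530) it begins at -95 and in Fanci (chr7:79392138-79392175) at -185. For Lig1 the start used is not that of most of its RNA here. The transcript NM_010715, with 93.5% of the Lig1 reads, starts further along the gene, at 13278826. In Ercc6 the core begins at 0 from the start used. As assembled, MSTRG.6080.1, with 79.9% of the Ercc6 reads, starts before that point, at 32512997 on the plus strand of chromosome 14.

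Of 93 further genes of DNA repair 0 were called in any of the 3 tests of gene sums, with 12 at an unadjusted p of 0.05 or less for the slope (12.9%, against 15.4% of all genes), 4 with a positive and 8 with a negative sign. Their log2 fold change between 18M and 3M was positive for 45 and negative for 48, with a median of -0.01. The 3 with the smallest p were Rfc1, which loads the sliding clamp, with 136 ± 1.62 CPM (SD, n = 3) at 3M and 120 ± 1.49 at 18M, Aptx, which cleans blocked ends, with 112 ± 5.09 and 124 ± 6.83, and Atr, the kinase of stalled forks, with 315 ± 18.2 and 279 ± 13.6. Their edgeR adjusted p for the slope was 0.187, 0.197 and 0.209. Of the 29 meiotic recombination genes found 0 were called, and 4 (13.8%, against 15.4% of all genes) had an unadjusted p of 0.05 or less for the slope, 3 with a positive and 1 with a negative sign. Their log2 fold change between 18M and 3M was positive for 14 and negative for 15, with a median of -0.0049. Syce2 and Syce3, of the synaptonemal complex, and Mlh3, of crossover resolution, had the smallest p, with edgeR adjusted p of 0.203, 0.249 and 0.293.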

How the data were processed

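RNA of 12 whole mouse testes was sequenced from ribosome-depleted libraries without strand information. Per the labels and the study's methods, the authors aligned reads to mm10 with HISAT2 and assembled and quantified transcripts with StringTie. The authors deposited an estimated count of reads and an FPKM value per transcript. The estimated counts equal mean coverage times length over the read length of 101 bases, rounded up, exactly for 71916 of 71967 transcripts of the first 3M library, and they were treated as counts. Counts and FPKM were summed per gene here. Genes were filtered by filterByExpr and tested with edgeR 4.0.16 (quasi-likelihood, TMM; R 4.3.3), with Benjamini-Hochberg adjustment over all features and a limit of 0.05, for a slope on age, 3M against 18M, any difference among the 4 ages, and a slope per transcript. DESeq2 1.42.0 and limma 3.58.1 (on log2 values) were alternatives, with other scalings, filters, reference transcripts, a replicate block and each library left out. The fits were tested on simulated counts. Transcript structure came from GENCODE vM21 and promoters from RefSeq (GRCm38.p6).

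The members and lists were chosen with earlier results of these data known. Values in every library are given for the 5 genes with the smallest p in the slope and the 3M against 18M test, the 3 highest and 3 lowest in FPKM and the 3 with the largest coefficient of variation at 1 CPM or more. Each library is 1 mouse. Depth was 50924104 to 71803379 reads per library, and intervals rest on the spread between mice. An exact permutation test of 3 mice against 3 cannot go below p = 0.1, so none was used.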

Additional observations from a re-analysis of the deposited data

Results flagged for a closer look

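One signal lay outside the gene sums. A transcript inside an intron of Mgmt, MSTRG.19142.1, carries the Mgmt symbol in the deposited table but was not part of the gene sum, and it held at least 3295 reads in every library, with no control samples to set it against. It spans 2182 bases at chr7:137123599-137125780 (mm10) and is listed on the minus strand. Its start on that strand, 137125780, lies 45 bases from the start of the leading short Mgmt transcript on the plus strand. As listed, they point away from each other. MSTRG.19142.1 had 16.7 to 28.1 times the reads of Mgmt itself. It had 64.3 ± 5.57 CPM (SD, n = 3) at 3M, then 67.1 ± 2.27 at 6M, then 71.2 ± 6.00 at 12M and finally 74.1 ± 1.37 at 18M. The 18M mice lay above the 3M mice, and by the edgeR slope its log2 change over 15 months was 0.20 with an adjusted p of 0.185. The kit kept no strand, and a link between this transcript and the short Mgmt transcripts beside it was not tested.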

How the results depend on the processing

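The count of genes called was 0 in all 3 tests of gene sums, and 0 for the members' transcripts, under every alternative that kept the adjusted p, including each library left out. All 44 genes were tested each time, except for 3M against 18M with reference transcripts only, where 43 were. With an unadjusted p the count called was 9 for the slope, 3 for 3M against 18M, 2 for any difference and 4 for transcripts. The smallest adjusted p of a member over the alternatives was 0.102 for the slope and 0.176 for 3M against 18M (DESeq2, Mgmt), 0.280 for any difference (edgeR without the third 12M mouse, Mgmt) and 0.0635 for transcripts (DESeq2, MSTRG.18543.2 of Fanci). Leaving out 1 library gave 4 to 12 members with continuous change, where 2099 to 3316 of 19713 to 19812 genes had it. It gave 14 to 26 of 44 without overlap, where 6707 to 8478 of 25214 genes had none. That second count can only stay or rise when a mouse is left out.

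Signs turned where only reference transcripts were summed: the slope per month was -0.010 for Mgmt, 0.0052 for Xrcc1 and -0.015 for Fancg, and the log2 fold change between 18M and 3M was -0.17, 0.13 and -0.28. With transcripts of at least 50% of the coding sequence, chosen after seeing the data, Mgmt had -0.010 per month and -0.17. For Mgmt both alternatives keep only NM_008598, so this is the same result and not a second check. Leaving out 1 library gave Xrcc1 slopes from -0.0019 (without the third 6M mouse) to 0.00017 (without the third 3M mouse), and Fancg slopes from -0.00035 (without the third 18M mouse) to 0.021 (without the second) and log2 fold changes from -0.0074 to 0.36.

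Counts over all genes moved more. DESeq2 called 562 for the slope, 295 for 3M against 18M, 654 for any difference and 749 transcripts, against 41, 16, 20 and 6 by edgeR. With reference transcripts only the slope called 15, and leaving out 1 library gave 13 (without the third 18M mouse) to 116 (without the first 18M mouse). It gave 18 to 34 for 3M against 18M, 15 to 44 for any difference and 3 to 8 transcripts. Without the filter 3 transcripts were called. The mouse numbers do not pair the samples: over 18 same-numbered pairs the correlation of deviations was -0.0765 to 0.0747, and 2 of 12 libraries correlated best with their own number. With the replicate block 0 members were called, and over all genes 22, 0 and 16 in the 3 tests and 3 transcripts.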
